A study of Mus musculus with 2 samples.

Results

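Gata1-positive cells made up a small group among the LSK cells of mouse bone marrow, which carry Sca-1 and c-Kit but no lineage marker and include stem cells and early multipotent progenitors. The cells were chosen by their own Gata1 count. A cell was counted as Gata1-positive when it held 1 or more unique molecular identifiers (UMIs, each standing for 1 captured transcript) of Gata1, and when under 10% of its UMIs were mitochondrial and over 1500 genes were detected in it. Of the 4688 cells in the deposited matrix, 4068 passed the cell filter, and 86 of these were Gata1-positive, or 2.11% (95% interval 1.69 to 2.60). The comparison group was the 3982 kept cells with 0 Gata1 UMIs. Because the Gata1 count chose the cells and every other gene was read from the same cells, all gene differences are descriptions, and no test was run on them.

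GATA1 is the zinc finger transcription factor that drives red cell, megakaryocyte, mast cell and eosinophil development. It takes over binding sites from GATA2 as stem cells leave multipotency, works with the cofactor FOG1 (encoded by Zfpm1), and with its partners turns on Klf1 in the erythroid branch and Pf4 and Itga2b in the megakaryocyte branch. GATA1 and PU.1 (encoded by Spi1), the driver of myeloid fate, antagonise each other.

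The LSK cells came from C57BL/6JRj mice, for which the labels name no altered allele and no treatment, 4 young animals of 3 to 5 months and 4 old animals of 22 to 28 months. Each age was pooled into 1 CITE-Seq library, in which transcripts and the DNA tags of surface-bound antibodies to CD150, CD48 and CLCA3A1 were counted in the same cells. The libraries are marked by the barcode suffix 1 or 2, and the sources used here do not say which suffix is which age, so the ages were not compared and each suffix is given as a separate reading. The 2 libraries shared 0 barcodes, and there were no replicates, so all intervals cover counting error only.

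The suffix 1 library held 21 Gata1-positive cells among 1524, a share of 1.38% (0.855 to 2.10). The suffix 2 library held 65 among 2544, a share of 2.56% (1.98 to 3.25). These intervals overlap slightly, between 1.98% and 2.10%. Detection of a gene at 1 UMI grew with depth. Gata1 was found in 0.393% of the cells in the shallowest of 4 equal depth bins and in 4.82% of those in the deepest. With each cell thinned to 9000 UMIs, 44 of 3825 cells were positive (1.15%, 0.837 to 1.54).

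Lymphoid-primed cells, which should lack Gata1, gave the background. Among 714 cells with 3 or more UMIs of Dntt, the DNA polymerase that adds bases at rearranging receptor genes, 3 held a Gata1 UMI (0.420%, 0.0867 to 1.22). After thinning, 0 of 704 did, where 3 counts would be 0.426% and the exact upper bound is 0.523%. Over both libraries the share of all kept cells lay above this background. In suffix 1 alone it did not separate from it, since 3 of 379 Dntt cells there held Gata1 (0.792%, 0.164 to 2.30), and in suffix 2 alone 0 of 335 did. The Dntt cells with 0 Gata1 UMIs had a median depth of 21871 UMIs, close to the 22965 UMIs of the Gata1-positive cells and well above the 14762.5 UMIs of the other cells.

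Most members rested on few Gata1 UMIs. The gene had 1 UMI in 50 cells, 2 UMIs in 19, 3 in 8, 4 in 2 and 5 in 4 cells, and 1 cell each held 6, 7 and 9 UMIs. None of the 86 cells was called a doublet, and 37 of the 4068 kept cells (0.91%) were, with the expected rate set at 0.06. At so low a share, 0 of 86 does not set the groups apart.

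The 3 other genes that mark this population, Klf1, Pf4 and Itga2b, were all higher in the Gata1-positive cells. Itga2b, the integrin chain CD41 of megakaryocytes and early progenitors, was at 124 CPM (UMIs of the gene per 1000000 UMIs summed over the group) against 20.3 CPM, a ratio of 6.13 (5.35 to 6.99). It was at 97.4 against 14.7 CPM in suffix 1 and at 135 against 23.8 CPM in suffix 2. It was found in 79.1% of the Gata1-positive cells and 22.8% of the others, and in 64.3% against 14.1% after thinning. Itga2b was therefore spread over the population rather than held by a few cells.

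Pf4, the platelet chemokine CXCL4, was at 514 CPM against 22.8 CPM, a ratio of 22.5 (20.8 to 24.3). In suffix 1 it was at 47.9 against 15.4 CPM and in suffix 2 at 692 against 27.5 CPM, so that the size of the difference came from suffix 2. It was found in 37 of the 86 cells, and 1 cell held 467 UMIs, 43.0% of all Pf4 UMIs in the group. Klf1, the erythroid Krüppel-like factor, was at 26.9 CPM against 0.866 CPM, a ratio of 31.1 (21.2 to 45.4). Its levels were 32.5 against 0.710 CPM in suffix 1 and 24.8 against 0.965 CPM in suffix 2. Klf1 was found in 20 of the 86 cells, or 23.3%, against 1.43% of the other cells.

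The label of an erythroid and megakaryocyte-primed population was borne by these markers, but not in every cell. Of the 86 cells, 10 held all 3 of Klf1, Pf4 and Itga2b, 27 held 2 of them, 41 held 1 and 8 held none. Among the other kept cells, 0.201% held all 3 and 63.3% held none. These numbers are at raw depth, with medians of 22965 and 14762.5 UMIs. After thinning, Klf1 was found in 11.9% against 0.722% of cells and Pf4 in 32.1% against 12.8%.

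Across all genes, 9969 reached 10% of the cells in one group or the other. On the log2 scale with 10 CPM added to both sides, 57 genes (0.572%) were at least 2-fold higher in the Gata1-positive cells and 87 (0.873%) at least 2-fold lower, 1.44% in all. In suffix 1 alone 113 (1.13%) were higher and 206 (2.06%) lower, 3.20% in all, and in suffix 2 alone 52 (0.523%) were higher and 88 (0.885%) lower, 1.41% in all. The median of all genes was 0.02. The rules for the 15 genes of largest rise and the 15 of largest fall were applied to these values. Of the rises, Mfsd2b, Gm15915, Aqp1, Cpa3, Fgf3, Klf1, Gp5, Ces2g, Tuba8 and Ms4a3 reached the filter through the Gata1-positive cells alone. Of the falls, Dntt, Irf8 and Ccl3 reached it through the other cells alone, and Ighg2b through the Gata1-positive cells alone. Passage through 1 group alone favours a call in that group's direction, in these counts and in the promoter shares given further on.

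Pf4 had the largest rise. Behind Pf4 at 4.00 came Mfsd2b, the exporter of sphingosine-1-phosphate in red cells and platelets, at 2.15 on the log2 scale. It was at 39.2 against 1.05 CPM and was found in 34 cells. Itga2b also reached 2.15, followed by the non-coding Gm15915 at 2.10, the water channel gene Aqp1 at 1.97, the mast cell carboxypeptidase Cpa3 at 1.96 and the growth factor Fgf3 at 1.94. Klf1 stood at 1.77. The platelet glycoprotein Gp5 (1.72), the carboxylesterase Ces2g (1.71), the tubulin Tuba8 (1.69), the thrombin receptor F2r (1.61), the red cell adhesion protein Icam4 (1.60), Ms4a3 (1.57) and the apolipoprotein Apoe (1.54) completed the set.

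These genes differed in how many cells carried them. Apoe was found in 93.0% of the Gata1-positive cells and 65.0% of the others, with 868 against 291 CPM. Its level was 918 against 139 CPM in suffix 1 (2.64) and 849 against 386 CPM in suffix 2 (1.12). F2r was found in 70.9% against 31.3% and Icam4 in 55.8% against 14.99%. By contrast, 4 of the 15 drew over 30% of their UMIs from 1 cell. These were Pf4 (43.0%), Klf1 (33.3%), Gm15915 (50.7%) and Ms4a3, of whose 94 UMIs 61 lay in 1 cell. Without the richest cell of each gene, all 30 named genes kept their direction and 29 stayed past 2-fold, the exception being Ms4a3 at 0.50. Ms4a3 was also at 10.3 against 8.48 CPM in suffix 1 (0.13) and at 57.5 against 8.17 CPM in suffix 2 (1.89).

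Among the 15 genes of largest fall were 4 of the lymphoid list (Dntt, Flt3, Satb1 and Ighm) and 1 of the stem cell list (Procr). Dntt was at 33.1 against 230 CPM (log2 -2.48), and 57 of the 70 UMIs in the Gata1-positive cells came from 1 cell, of suffix 1. It was at 115 against 306 CPM in suffix 1 (-1.34) and at 1.96 against 182 CPM in suffix 2 (-4.00). Both libraries were lower, by unequal amounts. Flt3, the receptor of lymphoid-primed progenitors, was at 22.7 against 143 CPM (-2.23). Satb1, a chromatin organiser of lymphoid cells, was at 9.93 against 85.4 CPM (-2.26). Procr, the endothelial protein C receptor of stem cells, was at 17.5 against 86.5 CPM (-1.81) and was found in 22.1% against 59.6% of cells.

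Of the remaining falling genes, Wfdc17 reached -3.14, the lymphotoxin gene Ltb -2.07, the adhesion protein Emb -1.96, Myl10 -1.79 and the myeloid factor Irf8 -1.70. The chemokine genes Ccl9 (-1.77), Ccl4 (-1.70) and Ccl3 (-1.67) were also among them. The immunoglobulin genes Igkc (-5.24), Ighm (-4.31) and Ighg2b (-4.27) headed the set. Of the other kept cells, 12 drew over 1% of their UMIs from immunoglobulin genes, and none of the Gata1-positive cells did. Without those 12 cells Igkc turned to 0.21 and Ighg2b to 0.27.

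**Figure D1:**
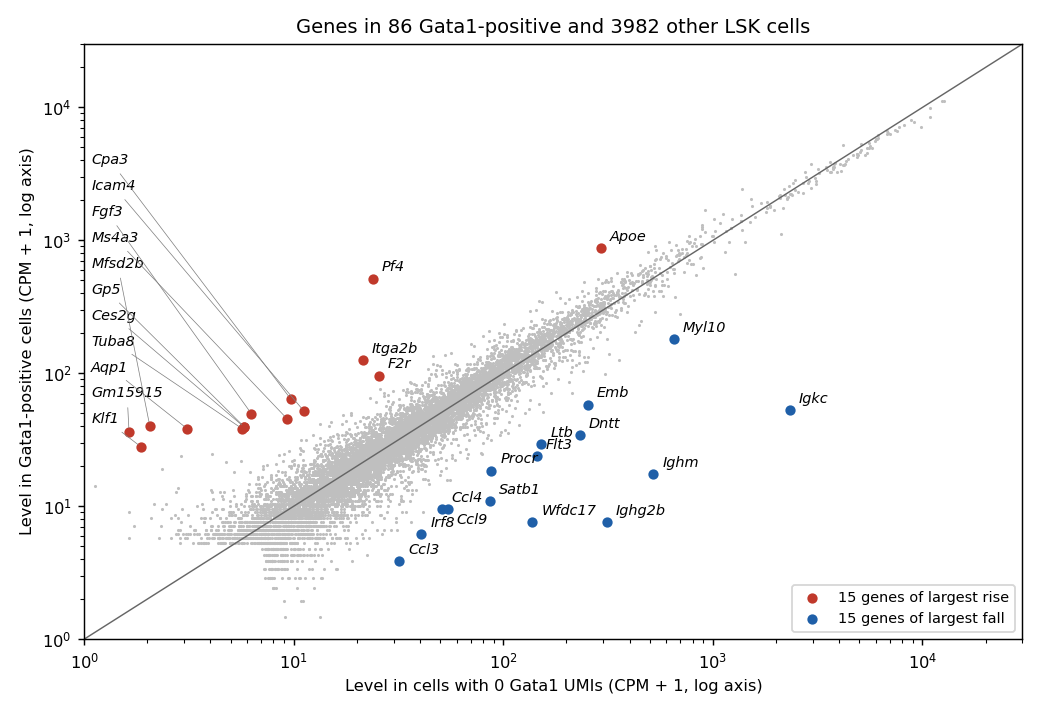
Level of each gene that reached 10% of the cells in one group or the other, as CPM + 1 on log axes, in the 3982 kept cells with 0 Gata1 UMIs (horizontal) and in the 86 Gata1-positive cells (vertical), 1 point per gene and the diagonal marking equal levels. Pf4 lies at 514 against 22.8 CPM far above the diagonal, and Procr, Flt3 and Dntt lie below it.

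The promoters of the rising genes were searched for the letters AGATAA on either strand (TTATCT on the other), 1 of several forms that GATA factors read. Other forms were not searched. RefSeq windows on GRCm38.p6 ran from 250 bases before to 50 after each start site. All 15 rising genes were matched, and 6 of them held the letters, in 6 of 17 windows (35.3%). Of all 32851 windows 11.2% held them, and of the windows of the genes tested 6.17%. Over all genes past 2-fold the shares were 9 of 52 windows (17.3%) for those higher and 8 of 88 (9.09%) for those lower. Of the falling genes 11 were matched, and 2 held the letters. No window of Klf1, Itga2b, Zfpm1 or Gfi1b held them, which says only that these letters are not in those windows.

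The 150 bases before the start site of 3 of these genes and of Epor, an erythroid gene named further on, are shown 5′ to 3′ on the gene's own strand with the letters in capitals, as examples from the platelet, erythroid and mast cell lists. The first letter lay 93 and 77 bases before the start of Gp5 (chr16:30310782-30310931, minus strand), 54 bases before that of the erythropoietin receptor gene Epor (chr9:21963577-21963726, minus strand), 43 before that of Icam4 (chr9:21029282-21029431, plus strand) and 46 before that of Cpa3 (chr3:20242182-20242331, minus strand).
Gp5: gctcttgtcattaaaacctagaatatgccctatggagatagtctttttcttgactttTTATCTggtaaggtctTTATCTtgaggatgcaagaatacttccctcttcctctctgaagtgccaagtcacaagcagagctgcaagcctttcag
Epor: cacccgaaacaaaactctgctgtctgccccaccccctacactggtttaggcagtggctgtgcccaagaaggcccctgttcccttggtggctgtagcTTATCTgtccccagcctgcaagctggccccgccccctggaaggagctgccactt
Icam4: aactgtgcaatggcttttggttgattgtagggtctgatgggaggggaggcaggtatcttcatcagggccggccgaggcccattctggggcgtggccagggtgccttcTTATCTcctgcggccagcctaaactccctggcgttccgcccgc
Cpa3: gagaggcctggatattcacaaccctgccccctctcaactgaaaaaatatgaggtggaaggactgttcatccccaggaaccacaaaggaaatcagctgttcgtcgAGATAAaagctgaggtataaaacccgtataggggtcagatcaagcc

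Among 20 transcription factors of the erythroid and megakaryocyte programmes, 4 were past 2-fold higher and none lower, with a median log2 ratio of 0.07, and Klf1 alone of these reached the filter only through the Gata1-positive cells. Beside Klf1 these included Zfpm1, the FOG1 gene, at 165 against 69.4 CPM (1.14), and Gfi1b, a repressor needed in both lineages, at 60.0 against 23.6 CPM (1.06). Zfpm1 was at 166 against 59.0 CPM in suffix 1 and at 165 against 76.0 CPM in suffix 2. Gata2 was at 155 against 92.5 CPM (0.68) and stayed within 2-fold. The broadly expressed factors were near the median of all genes, with Tal1 at 0.29, Fli1 at 0.32, Runx1 at 0.11, Myb at 0.08 and Nfe2 at -0.01, while Lmo2 was at -0.53 and Lyl1 at -0.52.

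Of 27 erythroid genes, 14 passed the detection filter, 6 were past 2-fold higher and none lower, and their median was 0.80. Of the 14, 4 reached the filter through the Gata1-positive cells alone, 2 of them among the 6, and such genes could hardly be counted as lower. The 6 were Aqp1, Icam4, Epor at 18.0 against 1.36 CPM (1.30), the biliverdin reductase Blvrb (1.19), the urea transporter Slc14a1 (1.18) and Hemgn (1.06). Late red cell genes were nearly or wholly undetected. The band 3 gene Slc4a1 and the heme enzyme Alas2 held 0 UMIs in the 86 cells. Of 9 heme synthesis enzymes 8 were tested, and none was past 2-fold, with a median of 0.37. The globin gene Hbb-bt was lower, at 8.03 against 40.5 CPM (-1.49). Hbb-bt was the one globin gene of 7 that passed the filter.

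Of 30 megakaryocyte and platelet genes, 22 passed the filter, 8 were past 2-fold higher and none lower, with a median of 0.66. Here 5 of the 22 reached the filter through the Gata1-positive cells alone, 2 of them among the 8. After Pf4, Itga2b, Gp5 and F2r came the platelet receptor Treml1 at 22.7 against 1.89 CPM (1.46), Rap1b, the GTPase that activates platelet integrins (1.13), the granule GTPase Rab27b (1.12) and the glycoprotein Gp9 (1.05). Vwf, the von Willebrand factor gene that also marks platelet-biased stem cells, was at 27.4 against 21.6 CPM (ratio 1.27, 0.961 to 1.65). It stood at 17.1 against 5.42 CPM in suffix 1 and at 31.4 against 31.7 CPM in suffix 2. The late platelet genes Gp6 and Slc6a4 held 0 UMIs in both groups.

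Of 23 mast cell, basophil and eosinophil genes only 5 passed the filter, and 2 were past 2-fold higher, Cpa3 and Fcer1a, a chain of the IgE receptor (13.2 against 0.130 CPM, 1.20). Both reached the filter through the Gata1-positive cells alone, so they could hardly enter the count except as higher. Of the 28 Fcer1a UMIs 14 lay in 1 cell. Of 19 stem cell genes tested, 5 were past 2-fold lower and none higher, with a median of -0.39. Hlf, a stem cell factor, was at 98.3 against 304 CPM (-1.53) and Ly6a, which encodes the Sca-1 antigen used in the sort, at 139 against 320 CPM (-1.14). Procr, Sult1a1 (-1.45) and Ifitm1 (-1.20) were the others. Mecom (-0.67), Meis1 (0.10) and Mycn (0.02) stayed within 2-fold.

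Of 10 lymphoid genes tested, 7 were past 2-fold lower, with a median of -1.16. Of 15 myeloid genes, 4 were past 2-fold lower and 1, Ms4a3, higher (it too reached the filter through the Gata1-positive cells alone), with a median of -0.69. The 4 were the protease Prtn3 (-1.28), Irf8, the repressor Gfi1 (-1.28) and Hk3 (-1.07). Spi1, the PU.1 gene, was at 80.4 against 139 CPM (-0.73) and Mpo at 165 against 169 CPM (-0.04). Of the 348 Mpo UMIs 126 and 84 lay in 2 cells, and without the richest cell Mpo was at 106 CPM. By Gata1 count it was at 266 CPM with 1 UMI, 9.58 CPM with 2 and 30.2 CPM with 3 to 5. The 2 richest cells both held 1 Gata1 UMI. In the 3 cells with 6 or more Gata1 UMIs Mpo was at 89.7 CPM (36.1 to 185). Among 21 cytokine receptors, Epor, which reached the filter in the same way, was the one past 2-fold higher, Flt3 and Il1r1 (-1.02) were lower, and Kit stood at 131 against 134 CPM (-0.02). Of 20 genes of mature B cells, T cells, neutrophils, macrophages and endothelium, 3 passed the filter and none was past 2-fold. Cd3e, Cd3d and Cd79a held 0 UMIs in the Gata1-positive cells. Others of the list were not absent. Among the 10 cells with Klf1 and without Pf4, the macrophage genes C1qa, C1qb and C1qc held 8, 10 and 4 UMIs, each in 1 cell. Cd79b held 9 UMIs in 5 of these cells, and 18 UMIs in 16 of the 27 cells with Pf4 and without Klf1.

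Cell cycle genes lay above 0, mostly by less than 2-fold, where 52.4% of all genes tested did. All 20 S phase genes lay above 0, with a median of 0.60 and none past 2-fold. All 20 genes of G2 and mitosis lay above 0, with a median of 0.89, and 6 were past 2-fold, among them Ccna2 (1.15), Cks2 (1.15), Plk1 (1.10) and Mki67 (1.02). Per cell, these 40 genes gave a median of 56.4 UMIs per 10000 in the Gata1-positive cells and 7.99 in the others. Above the median of all kept cells stood 78 of the 86 (90.7%) and 49.1% of the others. The Dntt cells, of like depth, gave a median of 36.5 UMIs per 10000, and 79.5% of them stood above that median. With the other cells weighted to the same cycle-gene levels, all 30 named genes kept their direction and 29 stayed past 2-fold. Mki67 went to -0.12, but it is 1 of the 40 genes that set the weights, so this move was built in. Other settings lost more calls. Thinned to 9000 UMIs, all 30 kept their direction and 25 stayed past 2-fold, with 10 of the 15 rises. Among cells at or under the median of the cycle genes, which left 8 Gata1-positive cells, 28 kept their direction and 23 stayed past 2-fold.

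**Figure D2:**
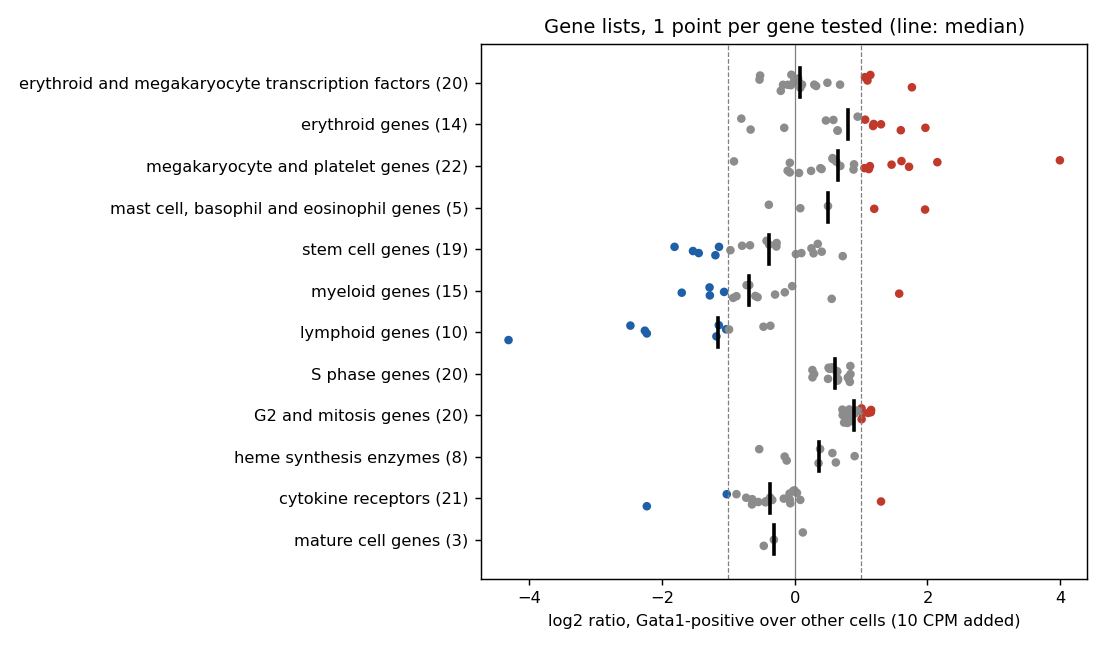
The log2 ratio of Gata1-positive over other kept cells (10 CPM added, horizontal) for each gene tested in 12 lists, 1 point per gene, red at 1 or above, blue at -1 or below, with a black line at each list's median and the number of genes in parentheses. Erythroid, megakaryocyte and cell cycle genes lie mostly to the right of 0, and lymphoid genes all lie to the left.

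The limit of the rule fell between cells with 0 and with 1 Gata1 UMI, and the 50 cells just inside it already stood apart from those just outside. Itga2b was at 20.3 CPM (19.2 to 21.4) with 0 Gata1 UMIs and at 109 CPM (91.0 to 129) with 1 UMI. Procr was at 86.5 CPM (84.3 to 88.7) and 26.2 CPM (17.9 to 36.9), and Flt3 at 143 (140 to 146) and 36.8 CPM (26.8 to 49.2). Both the stem cell gene Procr and the lymphoid-primed gene Flt3 were thus lower with the first UMI.

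Cells with more Gata1 UMIs stood further out for several genes. Gata2 was at 92.5 CPM with 0, at 122 CPM with 1, at 196 CPM with 2 and at 199 CPM with 3 to 5 Gata1 UMIs. Zfpm1 was at 69.4, 128, 232 and 202 CPM in the same order. Klf1 went from 0.866 through 9.81 and 33.5 to 70.5 CPM, but 19 of the last 28 UMIs lay in 1 cell, and without it the last value was 26.9 CPM. Epor went from 1.36 through 11.4 to 28.7 and 27.7 CPM. The intervals for 2 and for 3 to 5 UMIs overlapped for each of these genes. For Epor those for 1 and 2 UMIs overlapped too (6.26 to 19.2 and 14.8 to 50.2). The same was true of Hlf, given next (99.3 to 139 and 60.4 to 119). Dntt was at 57.2 CPM with 1 Gata1 UMI and at 0 UMIs in the 36 cells with more, Ly6a was at 320, 177, 113 and 50.4 CPM, and Hlf at 304, 118, 86.2 and 60.5 CPM. Kit showed no such order, at 134, 121, 139 and 151 CPM. Pf4 had no order either, at 552, 232 and 756 CPM with 1, 2 and 3 to 5 UMIs. In the 3 cells with 6 or more Gata1 UMIs Ly6a was at 154 CPM (79.5 to 269), above the cells with 3 to 5. All its UMIs there lay in 1 of the 3 cells. The intervals of Klf1 (7.93 to 112) and Epor (0.324 to 71.4) were too wide to place these 3 cells.

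**Figure D3:**
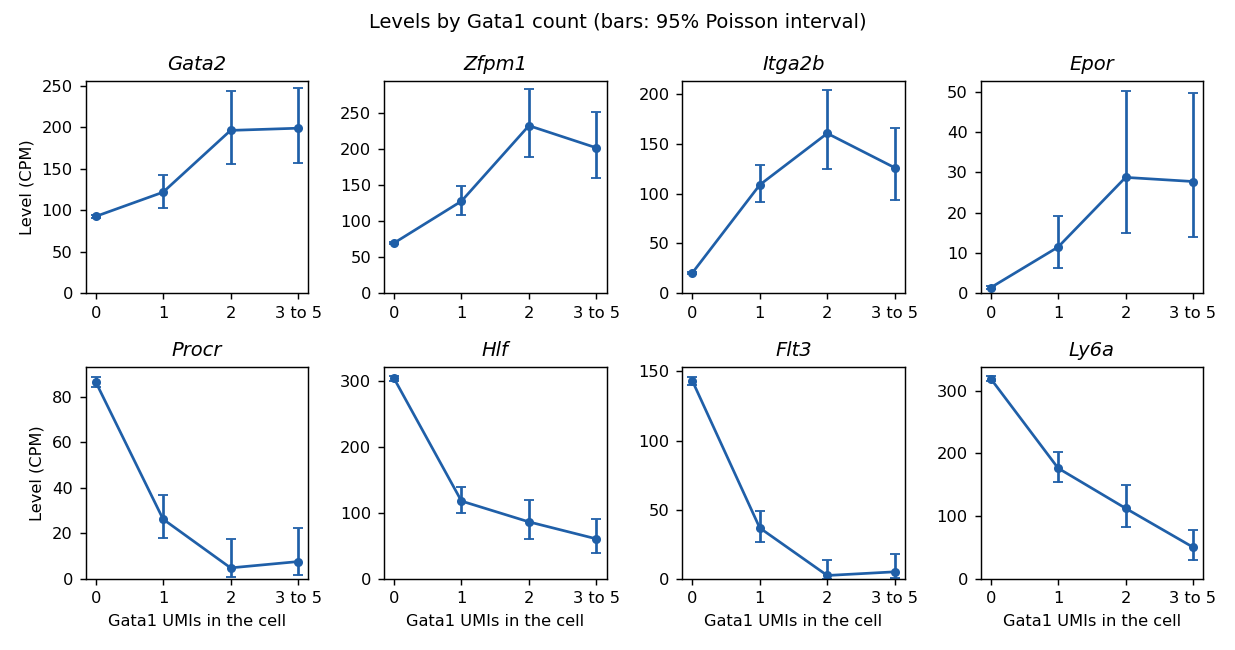
Level in CPM (vertical, linear axis from 0) of 8 genes in kept cells with 0, 1, 2 and 3 to 5 Gata1 UMIs (3982, 50, 19 and 14 cells), with bars for the exact 95% Poisson interval of the summed UMIs. Gata2, Zfpm1, Itga2b and Epor are higher, and Procr, Hlf, Flt3 and Ly6a lower, from the first Gata1 UMI on.

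Among themselves the Gata1-positive cells fell into sets by which lineage gene they held at 3 or more UMIs. Car1, the carbonic anhydrase of early erythroid cells, was reached by 6 cells, Pf4 by 16 and Cpa3 by 13. No cell reached both Car1 and Pf4 or both Pf4 and Cpa3, 1 reached Car1 and Cpa3, and 52 reached none. Itga2b was reached by 36 cells. These sets are small. At 1 UMI, Cpa3 was found in 35.1% of the members with Pf4 and 28.6% of those without, so Pf4 and Cpa3 did occur together at low counts.

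The Car1 cells held 39 of the 57 Klf1 UMIs of the Gata1-positive cells, but 16 of the 38 of Epor and 37 of the 79 of Aqp1, so that most of the last 2 lay in other members. Their Car1 counts were 428, 186, 145, 113, 13 and 4 UMIs, all 6 also held Klf1, and all 6 held 0 Pf4 UMIs. Klf1 stood at 202 CPM in them and Epor at 83.0 CPM. Of the 4068 kept cells, 6 held 3 or more Car1 UMIs and 6 held 3 or more Klf1 UMIs, and every one of these was Gata1-positive. The 5 richest in Car1 had CD150 tags between 61 and 362, and the cell with 4 Car1 UMIs also held 25 UMIs of Ms4a2, the beta chain of the IgE receptor, 11 of Cpa3 and 7 of the histamine enzyme gene Hdc.

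The Pf4 cells were larger in number and not unique to the Gata1-positive group. Of 125 kept cells with 3 or more Pf4 UMIs, 16 were Gata1-positive (12.8%, 7.497 to 19.9), and of 22 with 10 or more, 10 were (45.5%, 24.4 to 67.8). The 16 cells and the 109 Gata1-negative cells shared the floor of 3 UMIs but not the amount of Pf4, which was at 2438 against 432 CPM. Procr was found in 0 of the 16 and in 75 of the 109, at 0 and 108 CPM. Cycle genes gave a median of 54.6 against 6.88 UMIs per 10000, Itga2b stood at 264 against 48.6 CPM and Hlf at 62.0 against 326 CPM. The median depth was 27404.5 against 14924 UMIs. The Gata1-positive cells of this comparison thus had more Pf4, more cycle gene UMIs, less Procr and Hlf and more UMIs in all, and no value is at matched Pf4.

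Mpo was found in all 13 Gata1-positive cells with 3 or more Cpa3 UMIs and Fcer1a in 4, and 1 cell held much of both. Mpo, the myeloperoxidase gene, was at 709 CPM in the 13 Gata1-positive cells and at 603 CPM in the 44 Gata1-negative cells with 3 or more Cpa3 UMIs, and Fcer1a at 60.3 against 3.73 CPM. Without 1 cell rich in Prg2, described at the end of the paragraph, Mpo was at 355 CPM and Fcer1a at 19.5 CPM. None of the 44 Gata1-negative cells held 10 or more Prg2 UMIs, so the same exclusion left their values as they were. All 13 held Itga2b. Of 15 kept cells with any Fcer1a UMI, 9 were Gata1-positive (60.0%, 32.3 to 83.7). One cell of suffix 2 held 628 Prg2 UMIs, the major basic protein of eosinophils, with 61 of Ms4a3, 126 of Mpo, 22 of Cpa3 and 14 of Fcer1a. It held all Prg2 UMIs of the 86 cells.

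**Figure D4:**
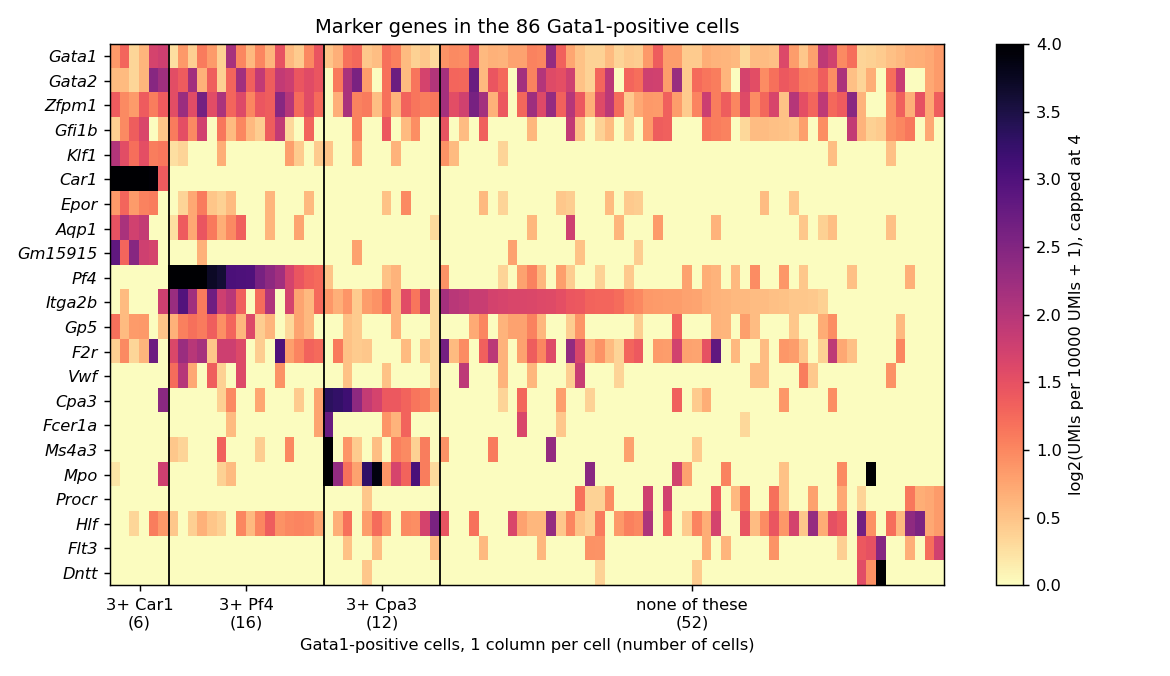
UMIs of 22 genes (rows) in each of the 86 Gata1-positive cells (columns), as log2 of UMIs per 10000 UMIs plus 1, capped at 4. Columns are ordered by 3 or more UMIs of Car1 (6 cells, 1 of which also reached Cpa3), Pf4 (16), Cpa3 (the other 12) or none of these (52), and the Car1 block holds 0 Pf4 UMIs.

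Cells were also split by 1 UMI of Klf1 and Pf4. Klf1 without Pf4 was found in 10 cells, Pf4 without Klf1 in 27, both in 10 and neither in 39. Of 10929 genes detected in at least 10% of either side, 275 (2.52%) were past 2-fold on the Klf1 side and 649 (5.94%) on the Pf4 side, 8.45% in all, a description of few cells cut at 1 UMI. Klf1 and Pf4, which made the split, and Gata1 were left out of these genes. The 8 genes that led the Klf1 side were Car1 (889 against 0 UMIs), Gm15915 (71 against 1), the metallothionein Mt2 (40 against 0), Atp1b2 (37 against 0), Lgals1 (70 against 5), Tspo2, a cholesterol-binding protein of erythroblasts (29 against 0), Ms4a2, all 25 UMIs of which lay in 1 cell, and the blood group gene Ermap (24 against 0). A single cell also held 51 of the 70 Lgals1 UMIs, 38 of the 71 of Gm15915 and 23 of the 40 of Mt2. The 8 that led the Pf4 side were the thromboxane synthase Tbxas1 (77 UMIs in 22 cells against 2), Esam (41 against 0), the platelet granule protein Mmrn1 (39 against 1), Myct1 (80 against 5), Cdkn1a, with 19 of its 32 UMIs in 1 cell, and the mitosis genes Nusap1, Ccnb2 and Ube2c. Summed over their lists, S phase genes were at 4395 CPM on the Klf1 side and 2901 CPM on the Pf4 side, and genes of G2 and mitosis at 1116 and 2657 CPM.

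The surface tags took no part in choosing the cells. CD150, the SLAM protein of stem cells and of megakaryocyte-erythroid progenitors, had a median of 181 tags (115 to 259) in the 86 Gata1-positive cells and 11 tags (10 to 12) in the 3900 others with tags. The difference of the medians was 1.22 on the log10 scale (0.982 to 1.41). It was 325 against 7 tags in suffix 1 and 168 against 16 in suffix 2. The median was higher in both libraries, but the upper range was not in suffix 2. In suffix 1, 17 of 21 Gata1-positive cells reached the 75th percentile of the others, and in suffix 2, 14 of 65 did. The mRNA of its gene, Slamf1, gave 34 UMIs in the 86 cells (16.1 against 10.5 CPM).

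CD48, which is absent from stem cells and gained by multipotent progenitors, had a median of 405 tags against 266.5, a difference of 0.179 whose interval reached below 0 (-0.0604 to 0.329). Within suffix 1 it was 765 against 456.5 tags (0.224, 0.0818 to 0.417) and within suffix 2 299 against 132 (0.355, 0.0206 to 0.575), both above 0. The difference turned to -0.177 when the other cells were weighted to the depth of the Gata1-positive cells, and to -0.459 as a centred log ratio of the tags, so no direction was read. CLCA3A1, a surface protein that the study followed on old stem cells, had a median of 64.5 against 15 tags (0.633, 0.352 to 0.735). It was 15 against 9 tags in suffix 1 and 74 against 25 in suffix 2, and the Clca3a1 mRNA was at 34.5 against 17.0 CPM. As centred log ratios the CD150 difference was 0.520 and that of CLCA3A1 0.0341, so the latter was not read as a direction either. Tags counted as unmapped were at 68 against 41 in suffix 1 and at 30 against 25 in suffix 2. What they measure and their part in the differences were not tested.

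Placed in gates, Gata1-positive cells were found at the highest share where both CD150 and CD48 were high. CD150-high meant at or above the 75th percentile of the library, which was 40 tags in suffix 1 and 407 in suffix 2, and CD48-high above the 50th percentile, 462 and 135 tags. In the CD150-high CD48-high gate 18 of 155 cells were Gata1-positive (11.6%, 7.03 to 17.7), and 5.81% (2.69 to 10.7) after thinning. The shares were 13 of 105 in suffix 1 (12.4%) and 5 of 50 in suffix 2 (10.0%). This gate also held the deepest cells, with a median of 25419 UMIs in its Gata1-negative cells. With the other cells weighted to the depth of the Gata1-positive ones the share was 6.24%, among cells low in cycle genes 0.758%, and with one limit for both libraries 18.2%.

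The stem cell corner held few of them. In the CD150-high CD48-low gate, where long-term stem cells lie, 2 of 555 cells were Gata1-positive (0.360%, 0.0437 to 1.30), with 0 of 172 in suffix 1 and 2 of 383 in suffix 2. The CD150-low CD48-low gate gave 2 of 454 (0.441%) and the CD150-low CD48-high gate 41 of 1833 (2.24%). Cells with CD48 between the limits gave 23 of 989 (2.33%, 1.48 to 3.47). Over both libraries the interval of the CD150-high CD48-high gate did not overlap those of the other 4 gates. In suffix 2 alone it did overlap that of the CD150-low CD48-high gate, with 10.0% (3.33 to 21.8) against 3.19% (2.27 to 4.35), and that of the cells between the CD48 limits, at 3.09% (1.87 to 4.78). The 41 cells were 47.7% of all Gata1-positive cells, and 38 of them lay in suffix 2, where the CD150 limit was higher.

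The tags also differed between the lineage sets. The 16 Pf4 cells ranged from 152 to 757 CD150 tags with a median of 353, and had a median of 276 CD48 tags. The 13 Cpa3 cells ranged from 2 to 343 CD150 tags with a median of 36, and had a median of 881 CD48 tags. The 6 Car1 cells had medians of 224.5 CD150 and 724.5 CD48 tags. Tag levels differ between the libraries, and the sets draw on them unequally. In suffix 2 the 14 Pf4 cells held 152 to 500 CD150 tags and 62 to 483 CD48 tags, and the 9 Cpa3 cells 2 to 44 and 551 to 1071, without overlap. In suffix 1, with 2 Pf4 and 4 Cpa3 cells, CD150 was at 457 to 757 against 36 to 343 tags, and CD48 at 322 to 1292 against 864 to 1164, which overlapped.

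Inside the CD150-high CD48-high gate the 18 Gata1-positive cells were set against the 137 others, whose median depth (26760 against 25419 UMIs) was close. Itga2b was at 147 against 39.8 CPM, a ratio of 3.68 (2.74 to 4.92), Klf1 at 36.1 against 0.840 CPM and Zfpm1 at 197 against 89.6 CPM (2.19, 1.73 to 2.76). Procr was at 14.1 against 85.98 CPM, a ratio of 0.163 (0.0652 to 0.341). Gata2 was at 145 against 127 CPM, and the interval of its ratio included 1 (1.14, 0.876 to 1.46). Within this gate, then, Itga2b, Klf1 and Zfpm1 were still higher and Procr lower, and a difference of Gata2 was not detectable. The ratio of Cpa3 was 1.91 there (0.920 to 3.67), and its interval included 1. Of the 30 named genes 29 kept their direction in the gate and 25 were past 2-fold. Cycle genes gave a median of 57.7 against 24.98 UMIs per 10000 there.

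**Figure D5:**
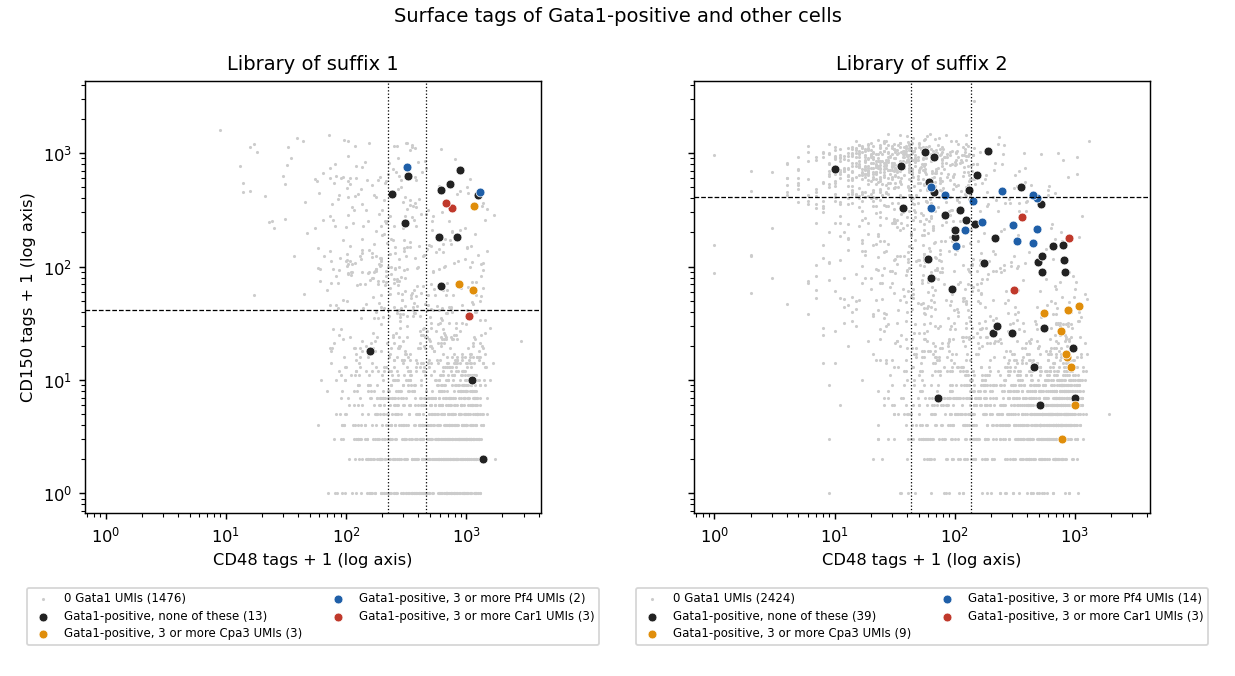
CD150 tags (vertical) against CD48 tags (horizontal), each plus 1 on log axes, for kept cells with tags in the libraries of suffix 1 and suffix 2, with dashed lines at the CD150-high limit and dotted lines at the 25th and 50th percentile of CD48. Grey points are cells with 0 Gata1 UMIs, and coloured points are Gata1-positive cells with 3 or more Car1 UMIs (red), Pf4 (blue), Cpa3 (orange) or none of these (black), the Cpa3 cells lying low in CD150 and high in CD48 in suffix 2.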

How the data were processed

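LSK cells of 4 mice per age were sequenced as 1 CITE-Seq library per age. The authors counted transcripts as UMI counts with Cell Ranger 3.1.0 (mm10 and GRCm38 in the submitters' processing notes) and brought both libraries to a common scale when merging them with aggr, by a mode not given in the sources used here. The deposited antibody tag values are log10 values of tag counts, made by the authors, and a value of minus infinity was read as 0 tags. The cell filter kept cells below 10% mitochondrial UMIs that had more than 1500 genes. There were 2115805 UMIs in the Gata1-positive cells and 69251528 in the others. Counts were summed over cells and given per 1000000 UMIs (CPM), and log2 ratios had 10 CPM added to both sides. A gene was called at 2-fold among genes that reached 10% of the cells in one group or the other, Gata1 left out. With 1 library per age and no link from suffix to age there was no replicate, and no test was run. Intervals (95%) were exact binomial for shares, Poisson for sums, conditional binomial for ratios and order statistics for medians, and the interval of a difference of medians joins the outer bounds of both. A count of 0 allows up to 3 counts. PCR and capture errors are not in them.

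Cells were thinned to 9000 UMIs where shares are given after thinning, which left out 2 Gata1-positive and 241 other cells. Doublets were called per library with scrublet (scanpy 1.11.5, expected rate 0.06) and kept. The genes named are the 15 of largest rise and of largest fall, leading and defining members of 14 gene lists, and the 8 genes leading each side of the Klf1 against Pf4 split. Some members of the lists are counted but not reported by name here. The members and lists were chosen with earlier results of these data known. The sets by 3 or more UMIs of Car1, Pf4 or Cpa3 and the single cells named were chosen after their values were seen. The calls were tested on simulated data with 200 changed genes among 9970. They recovered 49 of 50 genes raised 4-fold and 31 of 50 lowered to 0.25 of their level, and called 0 of 9770 unchanged genes. The simulation drew 1 summed count per gene and group, without spread between cells. Its 0 false calls therefore do not measure how often these cells give a false call. Analyses used numpy, scipy and pandas in Python.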

Additional observations from a re-analysis of the deposited data

How the results depend on the processing

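No paired analysis was possible because the result comes from no test and each age was 1 library. The share of kept cells, the gene counts, the tag differences and the CD150-high CD48-high share that moved beyond their counting interval, or by over 1.5 times for counts, follow with the single genes that reversed, and the cause was not tested. Values of single genes and of the other gates moved beyond their counting interval 332 times over all settings, and are not listed. With members limited to 2 or more Gata1 UMIs, the share of kept cells was 0.896%, 148 genes were past 2-fold up and 211 down, and the gate share (CD150-high CD48-high) was 6.08%. With under 5% mitochondrial UMIs (19 members), the share was 4.83%, 114 genes were up and 252 down, and the CD150 difference was 1.73. After thinning, the share was 1.15%, 125 genes were up and 153 down, and the gate share was 5.81%. Among cells at or under the median of the cycle genes, where 8 members were left, the share was 0.393%, 378 genes were up and 875 down, the CD150 difference was 0.897, that of CLCA3A1 0.143 and the gate share 0.758%, and Cpa3 (-0.40) and Ms4a3 (-0.23) reversed. In suffix 1 alone the share was 1.38%, 113 genes were up and 206 down, the CD150 difference was 1.67 and that of CLCA3A1 0.222. In suffix 2 alone the CD48 difference was 0.355. As centred log ratios of the tags, the differences were 0.520 for CD150, -0.459 for CD48 and 0.0341 for CLCA3A1. With others weighted to the members' depth, the CD48 difference was -0.177 and the gate share 6.24%. With 1 CPM added, 197 genes were up and 368 down, and as the mean of each cell's own CPM 117 were up. Without immunoglobulin-rich cells, Igkc was at 0.21 and Ighg2b at 0.27.

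Alternatives chosen after seeing the data, among them leaving out the richest cell of each gene, gave these changes. With others weighted to the members' cycle genes, the CD48 difference was -0.180 and that of CLCA3A1 0.768. Mki67, 1 of the genes that set the weights, was at -0.12. Within the CD150-high CD48-high gate, 247 genes were down and Ighg2b was at 0.040. With one limit for both libraries the gate share was 18.2%. All other checks of these counts, shares and tag differences (61) stayed within those bounds. Depth limits what is read from a cell with 0 Gata1 UMIs, since detection grew with depth.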

Other observations

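Of the 86 Gata1-positive cells, 6 held a Dntt UMI, and 1 of them, from suffix 1, held 57 Dntt UMIs with 9 CD150 tags, 1121 CD48 tags and 0 UMIs of Klf1, Pf4 and Itga2b. Of 91 kept cells with a UMI of the sphingosine-1-phosphate exporter Mfsd2b, 34 were Gata1-positive (37.4%, 27.4 to 48.1), and of 14 with 3 or more, 11 were (78.6%, 49.2 to 95.3). Of 20 kept cells with 3 or more UMIs of Gp5, 11 were Gata1-positive, and the 9 without a Gata1 UMI had a median of 122 CD150 tags against 325. Of 214 kept cells with 3 or more UMIs of Vwf, 7 were Gata1-positive (3.27%, 1.33 to 6.62).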
